A study of Homo sapiens with 16 samples.

Results

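GGCT, the gene for gamma-glutamylcyclotransferase, and 9 further genes of glutathione metabolism were followed in LNCaP prostate cancer cells after knockdown of SLIRP, an RNA-binding protein and nuclear receptor corepressor, with and without androgen. The 10 genes were CHAC2, OPLAH, GCLC, GCLM, GSS, GSR, GPX1, GPX4, GPX8 and GGCT itself, and all 10 were found by symbol among the 20531 entries of the count table. GGCT was selected on its higher level after SLIRP siRNA in these libraries, so its values in that comparison are a description with no test. The other 9 were taken for their place in the pathway, with earlier results of these data known.

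Glutathione is the main small thiol of the cell. It is made from glutamate, cysteine and glycine by glutamate-cysteine ligase and glutathione synthetase, it is oxidised when peroxidases use it to reduce peroxides, and it is restored by glutathione reductase with NADPH. Its breakdown runs through the gamma-glutamyl cycle, in which cyclotransferases release 5-oxoproline and 5-oxoprolinase turns that product back into glutamate. Cancer cells, those of the prostate included, rely on this system to hold reactive oxygen species in check.

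LNCaP is a human prostate cancer line that carries an androgen receptor and responds to androgen. The 16 libraries fell into 4 groups of 4, 2 with nonsense (NS) siRNA and 2 with a pool of siRNAs against SLIRP. Within each pair the cells received vehicle (NS-Veh and SLIRP-Veh) or dihydrotestosterone at 1 nM (NS-1nM DHT and SLIRP-1nM DHT). Every library therefore came from transfected cells in serum-free medium, with no library of untransfected cells analysed here. The study describes 2 biological replicates from each of 2 experiments with 1 cell line, which made the 4 of each group. It does not state which replicate number belongs to which experiment. The main fits treated the 4 libraries of a group as independent, so p-values rest on the spread between these samples. They may be too small if libraries of the same experiment resemble each other. In both NS groups replicates 1 and 2, and replicates 3 and 4, were the closest pairs, and the main fits held no term for experiment. The siRNA comparison, with vehicle and DHT libraries together, asks which transcripts differ when SLIRP is lost.

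Library totals ran from 436353 to 1689708 counts, and NS-Veh replicates 1 and 2 were the shallowest with 512925 and 436353. At this depth 1 count was worth 0.592 to 2.32 CPM, which matters for members with few counts. CPM are counts scaled to a common library size. SLIRP, listed under its older symbol C14orf156, lay between 45.1 and 63.4 CPM in the 8 NS libraries and between 1.41 and 8.04 CPM in the 8 SLIRP siRNA libraries, on 1 to 10 counts each. All 6 luminal markers were present in every library, and with vehicle their summed level was 2975 to 3186 CPM in NS cells and 2089 to 2283 CPM in SLIRP siRNA cells. Under DHT it was 3120 to 3609 and 2472 to 2835 CPM, respectively. The luminal sum was thus lower in every SLIRP siRNA library than in any NS library. It is weighted to FOLH1, the most abundant of the 6 at 1013 to 2153 CPM, while KLK2 ran from 1.32 to 67.7 CPM. The sum therefore does not show how each single marker moved, and its part in the member results was not tested. Of the 10 markers of other cell types, KRT5 and TP63 (basal cells), PTPRC (leukocytes), PECAM1 (endothelium) and DCN (fibroblasts) were at 0 counts in all 16 libraries and KRT14 (basal cells) in 13. The other 4 were present at low levels, with VWF (endothelium) at 2.37 to 17.4 CPM, COL1A1 and COL3A1 (fibroblasts) at 5.64 to 21.9 and 1.30 to 11.3 CPM, and CD68 (leukocytes) at 0 in 1 library and at most 7.83 CPM. Their part in the member results was not tested. In bulk RNA, fewer cells of a kind and less RNA per cell cannot be told apart.

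GGCT catalyses the release of 5-oxoproline from gamma-glutamyl amino acids. Its gene lies on the minus strand of chromosome 7 at 30536237 to 30544457 (hg19, GENCODE), and its 3′ UTR of 471 bases holds 1 word, shown here because it is the complement of bases 2 to 8 of the nonsense siRNA's guide strand. The guide was taken as the exact complement of the sense strand that the study's methods give. The 30 bases around that word at chr7:30536661-30536690, from the minus strand of GRCh37 and with the 7-base word in capitals, are the following.
GGCT 3′ UTR: ctaagggtattcTATGTGCtaatataaaat
None of the other 9 members holds TATGTGC in its 3′ UTR. Of 8619 genes tested in the siRNA comparison that have an annotated 3′ UTR, 966 (11.2%) hold the word. Their median log2 fold change, SLIRP siRNA minus NS, was 0.10, against -0.03 for the genes without it, and their 3′ UTRs were longer, with a median of 3381 against 1317 bases. The match is a description of the sequence, and its part in the GGCT values was not tested.

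GGCT had the widest separation of the 10 members, a rank that its selection on this comparison favoured. In the 4 NS-Veh libraries its levels were 42.0, 37.1, 41.6 and 49.8 CPM, on 16 to 63 counts. In NS-1nM DHT they were 50.3, 48.6, 53.1 and 56.3 CPM. The NS groups overlapped, since the highest NS-Veh library, at 49.8 CPM, stood above the lowest NS-1nM DHT library, at 48.6 CPM. After SLIRP siRNA they stood at 159.8, 181.6, 166.8 and 149.0 CPM with vehicle. Under DHT the 4 SLIRP siRNA libraries held 245.2, 232.7, 237.9 and 183.4 CPM. The lowest SLIRP siRNA library was thus well above the highest NS library, and the 2 SLIRP siRNA groups did not overlap each other either.

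With vehicle the group means were 42.6 ± 5.27 CPM in NS cells and 164 ± 13.7 CPM in SLIRP siRNA cells, and under DHT they were 52.1 ± 3.38 and 225 ± 28.1 CPM (SD, n = 4 each). On the log2 scale GGCT was higher in SLIRP siRNA than in NS libraries by 1.99 (SE 0.11) over all 16 libraries, a 3.97-fold higher level. It was 1.89 (SE 0.13) with vehicle and 2.09 (SE 0.12) under DHT. Over all 10167 genes tested the pooled value lay at the 99.9 percentile, a place that reflects how GGCT was chosen. Residual SLIRP rested on 1 to 10 counts a library, too few to rank the knockdown libraries, and its relation to GGCT was not tested. SLIRP-1nM DHT replicate 4 had the most SLIRP of its group (8.04 CPM, 10 counts) and the least GGCT. SLIRP-Veh replicate 2 had the most SLIRP of its group in CPM (7.83) and the most GGCT. That value rests on 5 counts, the same count as in SLIRP-Veh replicate 1.

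**Figure D1:**
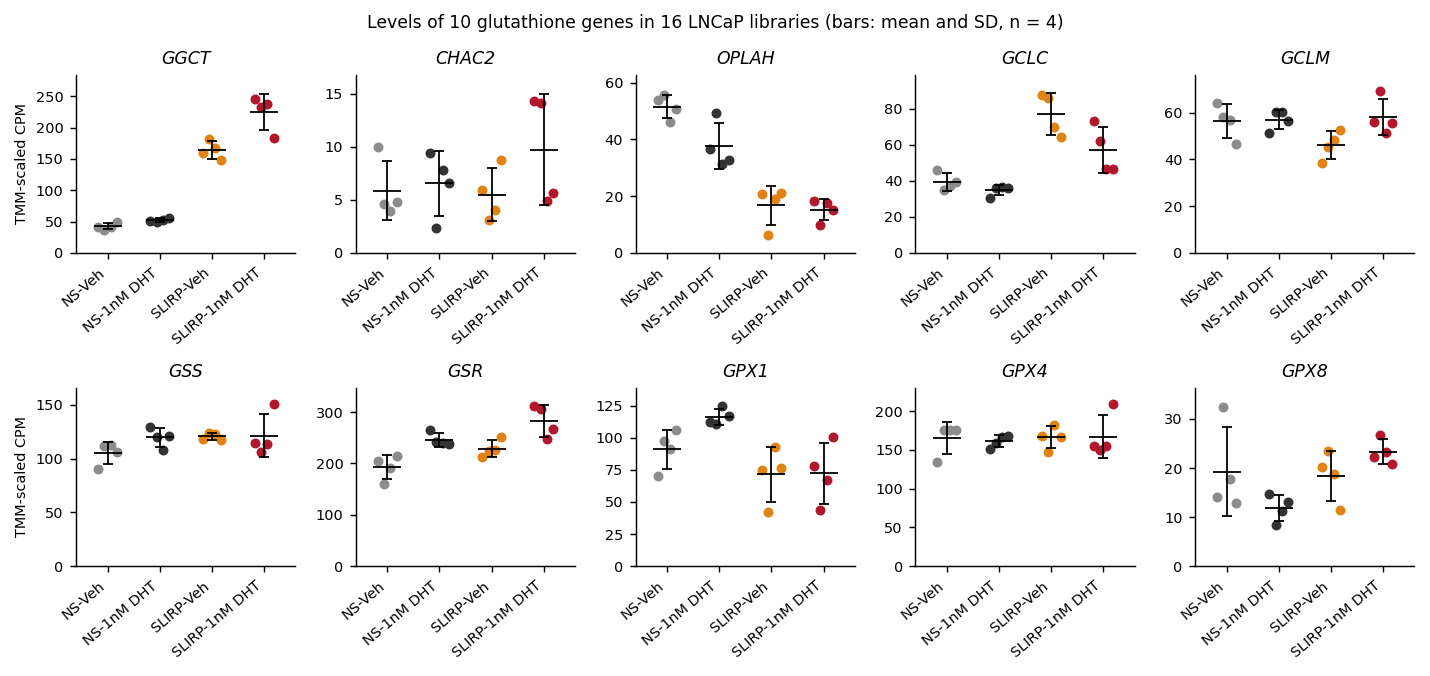
Level of each of the 10 members in every library (points, TMM-scaled CPM on a linear axis from 0), with the group mean and SD (n = 4), in the 4 groups. GGCT in the 8 SLIRP siRNA libraries lies at 149.0 CPM or above and OPLAH at 21.0 CPM or below, while the 4 group means of GPX4 lie between 161 and 167 CPM.

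OPLAH (chr8:145106167-145118868, minus strand, hg19 as for all positions here), the ATP-dependent 5-oxoprolinase that follows GGCT in the cycle, fell. Its levels were 54.0, 55.6, 46.2 and 50.6 CPM in NS-Veh and 36.7, 49.4, 31.4 and 32.9 CPM in NS-1nM DHT. After SLIRP siRNA they were 20.7, 6.26, 18.8 and 21.0 CPM with vehicle and 18.3, 9.87, 17.5 and 15.3 CPM under DHT. Every SLIRP siRNA library was below every NS library, and replicate 2 was the lowest in both SLIRP siRNA groups, on 4 and 7 counts. The log2 fold change was -1.37 (SE 0.17), a 2.59-fold fall, with an adjusted p over all genes tested (false discovery rate, FDR, edgeR's quasi-likelihood test) of 1.3e-07. It was -1.48 (SE 0.22, FDR 1.69e-06) with vehicle and -1.28 (SE 0.23, FDR 3.69e-05) under DHT. Without SLIRP-Veh replicate 2 the vehicle value was -1.31 (FDR 5.14e-06).

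CHAC2 (chr2:53994941-54002333, plus strand) cleaves glutathione itself, releasing 5-oxoproline from the intact tripeptide. It was the member with the fewest reads, 2 to 11 counts in a library, and it did not pass the low-count filter in the comparison over all 16 libraries. In NS cells its means were 5.86 ± 2.79 CPM with vehicle and 6.54 ± 3.05 CPM with DHT, and in SLIRP siRNA cells 5.46 ± 2.49 and 9.73 ± 5.196 CPM (SD, n = 4), and all groups overlapped. In the 4-group model its log2 fold change after SLIRP siRNA was 0.17 (95% interval -0.85 to 1.18, FDR 0.837) with vehicle and 0.50 (-0.37 to 1.37, FDR 0.398) under DHT. A difference of the size seen for GCLC lies within both intervals and was not detectable at this depth.

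Of the 3 genes of synthesis, 1 was called. GCLC (chr6:53362139-53481768, minus strand), the catalytic subunit of glutamate-cysteine ligase and the site of the rate-limiting reaction, rose after SLIRP siRNA. Its levels were 46.0, 34.8, 36.997 and 39.3 CPM in NS-Veh and 30.4, 36.2, 36.6 and 35.8 CPM in NS-1nM DHT. After SLIRP siRNA they were 87.6, 86.1, 70.0 and 64.0 CPM with vehicle and 73.0, 62.0, 46.6 and 46.6 CPM under DHT. All 8 SLIRP siRNA libraries were above all 8 NS libraries, although replicates 3 and 4 under DHT stood only just above the highest NS library. GCLC rose by 0.86 on the log2 scale (SE 0.13, FDR 3.82e-06) over all libraries, 0.99 (SE 0.17, FDR 1.11e-05) with vehicle and 0.67 (SE 0.17, FDR 0.002) under DHT. Without SLIRP-1nM DHT replicate 1 the last of these was 0.54 (FDR 0.0166).

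GCLM (chr1:94350755-94375012, minus strand), the modifier subunit that raises the efficiency of GCLC, was not called with it. Its means with vehicle were 56.3 ± 7.25 CPM in NS cells and 46.2 ± 5.95 CPM in SLIRP siRNA cells, and under DHT 57.0 ± 4.15 and 58.0 ± 7.66 CPM (SD, n = 4). Over all libraries its log2 fold change was -0.13 (95% interval -0.36 to 0.10, FDR 0.354), an interval that does not reach the GCLC value. GSS (chr20:33516235-33543830, minus strand), which adds glycine to complete the molecule, had a log2 fold change of 0.09 (-0.08 to 0.26, FDR 0.373). With vehicle the GSS libraries did not overlap, at 90.1 to 113 CPM in NS-Veh and 117 to 124 CPM in SLIRP-Veh, yet the log2 fold change of 0.17 (SE 0.12) had an FDR of 0.283.

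GSR (chr8:30535583-30585363, minus strand), the NADPH-dependent reductase that recycles oxidised glutathione, averaged 193 ± 23.6 CPM with vehicle and 246 ± 13.0 CPM with DHT in NS cells, and 228 ± 16.5 and 283 ± 31.0 CPM in SLIRP siRNA cells (SD, n = 4). The siRNA groups overlapped at both treatments. Over all libraries the log2 fold change was 0.20 (95% interval 0.01 to 0.38, FDR 0.073). With treatment as a covariate it was 0.20 with an FDR of 0.00945, so the call depends on whether treatment enters the model.

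Among the 3 peroxidases, GPX1 (chr3:49394607-49396038, minus strand), the abundant cytosolic selenoenzyme that reduces hydrogen peroxide, fell over all libraries. Its levels were 70.0, 97.3, 91.2 and 106 CPM in NS-Veh and 112, 111, 125 and 117 CPM in NS-1nM DHT. After SLIRP siRNA they were 74.6, 42.3, 92.8 and 76.3 CPM with vehicle and 78.2, 43.7, 67.0 and 101 CPM under DHT. The groups overlapped with vehicle and did not overlap under DHT, and replicate 2 was again the lowest in both SLIRP siRNA groups. GPX1 had a log2 fold change of -0.52 (SE 0.13, FDR 0.00118) over all libraries, -0.35 (SE 0.17, FDR 0.112) with vehicle and -0.63 (SE 0.16, FDR 0.00174) under DHT. The DHT value was -0.49 (FDR 0.014) without SLIRP-1nM DHT replicate 2 and -0.58 (FDR 0.0113) without replicate 3.

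GPX4 (chr19:1103981-1106790, plus strand), the enzyme that reduces phospholipid hydroperoxides within membranes, was not called. With vehicle its means were 165 ± 20.9 CPM in NS cells and 166 ± 14.2 CPM in SLIRP siRNA cells, and under DHT 161 ± 7.85 and 167 ± 28.2 CPM (SD, n = 4), and single libraries ran from 134 to 209 CPM. The log2 fold change after SLIRP siRNA was 0.03 with a 95% interval of -0.14 to 0.19 (FDR 0.822).

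GPX8 (chr5:54455995-54463125, plus strand), a peroxidase of the endoplasmic reticulum membrane, was called under DHT. Its levels were 14.7, 8.48, 11.3 and 13.2 CPM in NS-1nM DHT and 22.2, 26.8, 23.3 and 20.9 CPM in SLIRP-1nM DHT, which did not overlap. With vehicle they were 14.01, 32.4, 17.8 and 12.8 CPM in NS-Veh and 20.1, 23.5, 18.8 and 11.4 CPM in SLIRP-Veh, which overlapped throughout. GPX8 had a log2 fold change of 0.96 (SE 0.28, FDR 0.00568) under DHT, 0.04 (SE 0.28, FDR 0.943) with vehicle and 0.50 (SE 0.21, FDR 0.0486) over all libraries. These values rest on 7 to 34 counts a library. The call under DHT was lost without NS-1nM DHT replicate 2 (0.84, FDR 0.0264) or 3 (0.96, FDR 0.0129) and without SLIRP-1nM DHT replicate 2 (0.90, FDR 0.0177) or 3 (0.96, FDR 0.0149). Over all libraries GPX8 was called when NS-Veh replicate 2, its highest library, was left out (0.63, FDR 0.00929).

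Of the 8 members other than GGCT that were tested over all libraries, 3 were called at an FDR of 0.01, 1 higher and 2 lower. Across all 10167 genes tested the share called was 35.2%, with 17.8% higher and 17.4% lower, so the count is close to that background. With vehicle 2 of 9 were called, 1 in each direction, against 21.7% of 10684 genes (11.8% higher and 9.95% lower). Under DHT 4 of 9 were called, 2 higher and 2 lower, against 24.4% (12.8% higher and 11.6% lower). Libraries did not overlap for 2 of the 8 members over all libraries (15.2% of all genes tested), 3 of 9 with vehicle (29.3%) and 4 of 9 under DHT (32.2%). The median log2 fold change of the 8 members was 0.06, beside -0.01 for all genes tested.

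**Figure D2:**
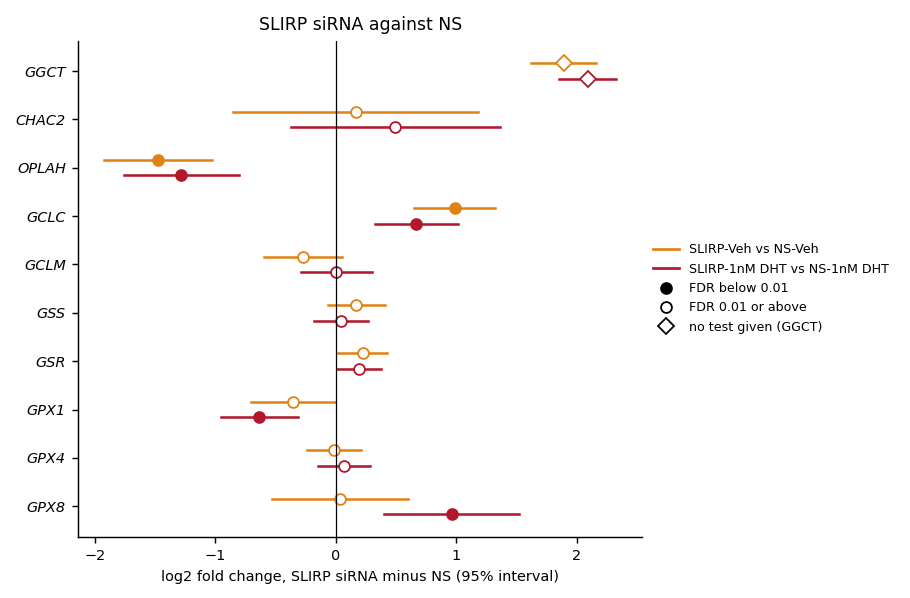
Log2 fold change of each member, SLIRP siRNA minus NS, with vehicle (orange) and under 1 nM DHT (red), with 95% intervals from the 4-group model, and filled circles where the FDR is below 0.01. OPLAH is at -1.48 and -1.28 and GCLC at 0.99 and 0.67, both filled, whereas the open diamonds of GGCT at 1.89 and 2.09 carry no test.

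The androgen comparisons ask whether the same genes respond to DHT when SLIRP is present and when it is lost, and they were not used to choose GGCT. In NS cells none of the 9 members tested was called, against a background of 1.31% of 10367 genes (0.849% higher and 0.463% lower). DESeq2 called none of the 9 either. With edgeR, 3 of the 9 had an unadjusted p under 0.05 (OPLAH, GSR and GPX1), as did 1478 of the 10367 genes. GGCT had a log2 fold change, DHT minus vehicle, of 0.25 (SE 0.15, FDR 0.504). GSR libraries did not overlap, at 160 to 214 CPM in NS-Veh and 238 to 265 CPM in NS-1nM DHT, with a log2 fold change of 0.32 (SE 0.09, FDR 0.0453). GPX1 libraries did not overlap either, and GPX1 had a log2 fold change of 0.31 (SE 0.11, FDR 0.17). Non-overlap held for 8.77% of all genes tested there. OPLAH had a log2 fold change of -0.42 (SE 0.17, FDR 0.224).

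In SLIRP siRNA cells GGCT was the 1 member of 10 that was called, against a background of 1.17% of 10684 genes (0.636% higher and 0.534% lower). Every SLIRP-1nM DHT library was above every SLIRP-Veh library, a separation that 8.4% of genes tested showed. GGCT rose by 0.45 on the log2 scale (SE 0.10, FDR 0.00746), a 1.37-fold rise. This call was near the threshold: it was lost with DESeq2 (0.47, FDR 0.0135), with upper-quartile normalization (0.43, FDR 0.0101) and with limma on the normalized table (0.41, FDR 0.188). It was also lost without SLIRP-1nM DHT replicate 1 (0.42, FDR 0.0282), 2 (0.44, FDR 0.0237) or 3 (0.42, FDR 0.0359), without SLIRP-Veh replicate 1 (0.46, FDR 0.028), 3 (0.47, FDR 0.0144) or 4 (0.41, FDR 0.0415), and without NS-Veh replicate 3 (0.45, FDR 0.01). The log2 fold change stayed between 0.41 and 0.57 in all 16 of those leave-one-out fits.

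Among the other members in SLIRP siRNA cells, GCLC had a log2 fold change of -0.47 (SE 0.15, FDR 0.0848), GSR of 0.30 (SE 0.09, FDR 0.0744) and GCLM of 0.33 (SE 0.16, FDR 0.287). GPX8 was at 0.35 (SE 0.26, FDR 0.564) and OPLAH at -0.22 (SE 0.27, FDR 0.766). None of these passed the threshold.

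The difference in DHT response between the siRNAs was tested directly. For GGCT it was 0.20 on the log2 scale (SE 0.19, 95% interval -0.18 to 0.58, FDR 1), so the call in SLIRP siRNA cells and its absence in NS cells do not show different responses. None of the 10 members was called by edgeR or DESeq2, nor was any of the 10684 genes tested, of which 388 had an unadjusted p under 0.05 in edgeR. GPX8 was the member among those 388, with a difference of 0.93 (SE 0.39, 95% interval 0.13 to 1.72, unadjusted p 0.0241, FDR 1). The GPX8 response was -0.58 (SE 0.30) in NS cells and 0.35 (SE 0.26) in SLIRP siRNA cells, and neither was called.

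**Figure D3:**
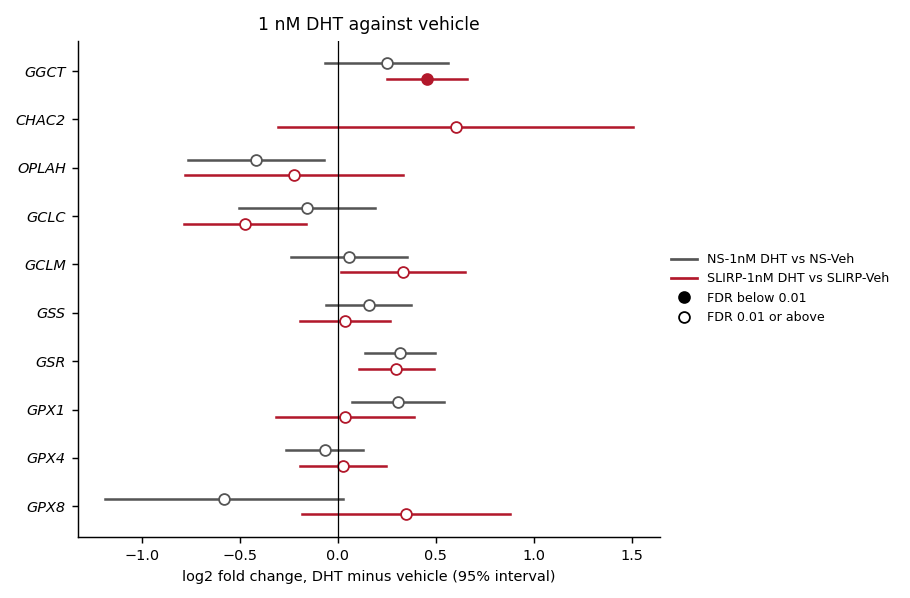
Log2 fold change of each member, 1 nM DHT minus vehicle, in NS cells (grey) and SLIRP siRNA cells (red), with 95% intervals, and a filled circle where the FDR is below 0.01. The single filled circle is GGCT in SLIRP siRNA cells at 0.45, its interval overlaps that in NS cells at 0.25, and CHAC2 has no value in NS cells because it was below the low-count filter there.

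Levels can be compared between genes only per transcript length, and on the scale of CPM per kb of the canonical transcript GPX4 was the most abundant member in all 4 groups, from 189 to 196 CPM per kb. GGCT ranked 5 of 10 in both NS groups, with 36.8 ± 4.55 CPM per kb in NS-Veh and 45.0 ± 2.92 in NS-1nM DHT. It ranked 2 of 10 in both SLIRP siRNA groups, with 142 ± 11.8 and 194 ± 24.3 CPM per kb. Under SLIRP-1nM DHT its level and that of GPX4 (196 ± 33.1) therefore differed by less than their SDs. OPLAH moved the other way, from 12.8 ± 1.03 CPM per kb and rank 6 in NS-Veh to 4.16 ± 1.75 and rank 10 in SLIRP-Veh.

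Across the 16 libraries the log2 level of GGCT had a Pearson r of -0.89 with OPLAH, 0.79 with GCLC, 0.62 with GSR and -0.62 with GPX1. The points share the 4 groups, and with each group's mean removed r was -0.38, 0.51, 0.36 and -0.36. Of 2697 genes that averaged 100 counts or more a library, those most like GGCT over the 16 libraries were ENDOD1 (r = 0.98), an endonuclease-domain protein, TACC1 (0.98), a coiled-coil protein of the microtubule and chromatin machinery, PA2G4 (0.98), a growth-regulating ErbB3-binding protein, and the chaperonin subunits CCT2 (0.98) and TCP1 (0.98). These genes were chosen for that r, and 2 of the 5 remained when ranked by Spearman's rho. With each group's mean removed, r over the same 16 libraries was 0.25, 0.86, 0.74, 0.08 and 0.43 in that order, as a description. ENDOD1 averaged 204 ± 15.6 CPM in NS-Veh and 543 ± 26.8 CPM in SLIRP-Veh, and 260 ± 19.0 and 681 ± 90.1 CPM under DHT, an order of groups that is the same as that of GGCT.

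A wider list of 71 genes put the members in their setting, of which 70 were in the table and 45 were tested over all libraries. Of the 45, 10 were lower and 2 higher after SLIRP siRNA, against 17.4% of all genes called lower and 17.8% called higher. The median log2 fold change of the list was -0.16, against -0.01 for all genes tested. With vehicle 7 of 48 were lower and 2 higher, against 9.95% and 11.8% of all genes. Under DHT 7 of 48 were lower and 1 higher, against 11.6% and 12.8% of all genes.

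The cysteine supply held the largest fall. SLC7A11, the cystine and glutamate exchanger that brings in the limiting amino acid, was at 252 to 346 CPM in NS-Veh and 205 to 276 CPM in NS-1nM DHT. It was at 81.4 to 110 CPM in SLIRP-Veh and 68.4 to 109 CPM in SLIRP-1nM DHT, far below every NS library. Its log2 fold change was -1.53 (SE 0.10, FDR 3.28e-13), and none of the other 4 genes of cysteine supply was called. SLC7A11 and the ligase subunit GCLC, which uses the cysteine it supplies, thus moved in opposite directions.

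Outside the cell, GGT1 cleaves the gamma-glutamyl bond of exported glutathione, and it fell by 0.90 on the log2 scale (SE 0.17, FDR 6.22e-05), from 41.9 to 21.6 CPM, with overlapping libraries. With vehicle GGT1 was called (-1.20, FDR 1.1e-04), and under DHT it was not (-0.61, FDR 0.0215). GGT7 of the same family was also lower over all libraries, but it was called neither with vehicle (-0.61, FDR 0.197) nor under DHT (-0.90, FDR 0.0335). GGT1 and GGT7 were 2 of the wider list's 4 tested genes of the cycle and breakdown, against 17.4% of all genes called lower. The members GGCT and OPLAH, of the same cycle, are not among these 4. GSTA4, the transferase that conjugates lipid peroxidation aldehydes to glutathione, fell by 1.19 (SE 0.16, FDR 3.63e-07), from 70.6 to 29.0 CPM. GSTK1 was the second of 11 transferases to be lower, against 17.4% of all genes called lower. KEAP1, the adaptor that marks the transcription factor NRF2 for degradation, fell by 0.83 (SE 0.11, FDR 1.92e-07), from 85.0 to 48.1 CPM, and NQO1, a classic NRF2 target, was lower too.

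Of 14 thioredoxin, glutaredoxin and peroxiredoxin genes, 2 were higher and 2 lower, against 17.8% and 17.4% of all genes tested. GLRX5, a mitochondrial glutaredoxin of iron-sulphur cluster assembly, rose by 0.42 (SE 0.10, FDR 7.65e-04) and TXN, the cytosolic thioredoxin, by 0.40 (SE 0.10, FDR 8.8e-04). GLRX5 was called under DHT (0.57, FDR 5.08e-04) and not with vehicle (0.25, FDR 0.162). TXN was called with vehicle (0.45, FDR 0.00918) and not under DHT (0.36, FDR 0.027), and the vehicle call was lost with DESeq2 (FDR 0.0157) and in 11 of 16 leave-one-out fits. PRDX1 and PRDX2 were the 2 lower ones, PRDX1 with either treatment and PRDX2 under DHT (-0.33, FDR 0.00175) but not with vehicle (-0.22, FDR 0.0486). In the supply of NADPH, ME1 was the 1 of 5 genes called lower over all libraries, against 17.4% of all genes. ME1 was called neither with vehicle (-0.33, FDR 0.0121) nor under DHT (-0.30, FDR 0.0139). IDH2 of the same role was called higher with vehicle (0.37, FDR 0.00867), but not over all libraries (0.21, FDR 0.0425) or under DHT. None of 3 glyoxalase and thioester hydrolase genes was called. The 5 remaining glutathione peroxidases all lay below the low-count filter.

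**Figure D4:**
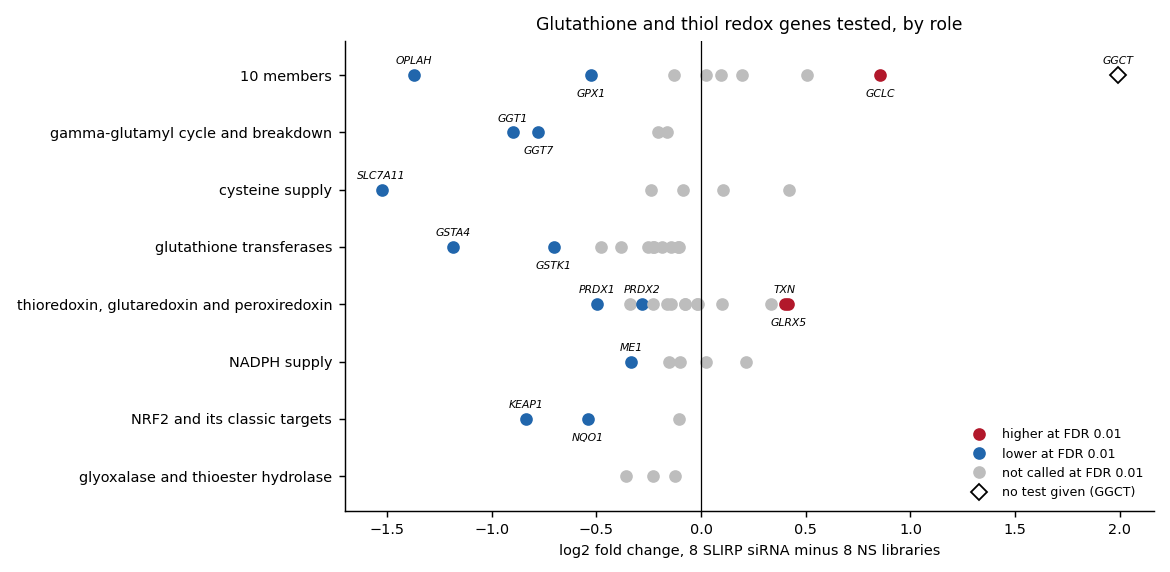
Log2 fold change, mean of 8 SLIRP siRNA over 8 NS libraries, for each gene tested among the 10 members and, by role, the wider list, with called genes in red (higher) or blue (lower) and the rest in grey. SLC7A11 at -1.53 and OPLAH at -1.37 lie farthest to the left, GGCT at 1.99 farthest to the right, and CHAC2 and the other glutathione peroxidases are absent because they were not tested.

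In NS cells DHT called none of 47 tested genes of the wider list with edgeR or DESeq2, and in SLIRP siRNA cells 2 of 48 rose, against 1.31% and 1.17% of all genes. In NS cells 6 of the 47 had an unadjusted p under 0.05 in edgeR, as did 1478 of all 10367 genes tested. IDH1, the cytosolic isocitrate dehydrogenase that yields NADPH, went from 532 to 611 CPM in SLIRP-Veh to 739 to 905 CPM in SLIRP-1nM DHT, and its log2 fold change was 0.52 (SE 0.09, FDR 4.15e-04). In NS cells it was 0.35 (SE 0.09, FDR 0.0205). GLO1, which detoxifies the glutathione adduct of methylglyoxal, rose by 0.37 (SE 0.08, FDR 0.00779) in SLIRP siRNA cells, where its libraries did not overlap, and had a log2 fold change of 0.27 (SE 0.08, FDR 0.0506) in NS cells. The GLO1 call was lost without SLIRP-1nM DHT replicate 1 (0.34, FDR 0.0262), 2 (0.38, FDR 0.0142) or 3 (0.38, FDR 0.0175) and without SLIRP-Veh replicate 4 (0.30, FDR 0.0536). For both genes the difference in response between siRNAs was small, 0.18 (SE 0.13) for IDH1 and 0.10 (SE 0.12) for GLO1, each with an FDR of 1.

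Several members overlap other annotated genes, and the strand used in counting is not given in the sources used here. GGCT and GPX1 each share their strand with an overlapping protein-coding locus. At GGCT that locus ends at 30536693, short of the gene's 3′ end at 30536237. GCLC overlaps 3 long noncoding RNAs, 1 of them on its own strand. CHAC2, GSS, OPLAH and GPX8 overlap ASB3, MYH7B, SMPD5 and CDC20B on the opposite strand. Reads from such pairs could have been split or joined. GCLM, GSR and GPX4 overlap no other annotated gene. GGCT and GPX1 also have annotated pseudogene copies, with which reads could have been shared, so their levels are uncertain to that extent. Whether the other members have such copies is not given here.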

How the data were processed

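RNA of siRNA-transfected LNCaP cells was sequenced in 16 libraries. The authors deposited expected counts (per the labels, RSEM and CASAVA on hg19, without versions), rounded to whole numbers, for 20531 entries, and a normalized table, a score in which counts were scaled to a library's upper quartile and rounded. The annotation is not given in the sources used here. Counts were analysed in R 4.3.3 with edgeR 4.0.16 (TMM, filterByExpr, glmQLFit, glmQLFTest), calling genes at a Benjamini-Hochberg FDR of 0.01 computed across every gene tested. The siRNA comparison used all 16 libraries without a covariate, the NS androgen comparison its 8 libraries, and the remaining comparisons contrasts of a 4-group model. CPM are TMM-scaled, log2 CPM used a prior count of 2, and SE is the log2 fold change over the square root of F. Intervals are at 95%.

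The 10 members, the wider list and the markers were chosen with earlier results of these data known. Of the wider list, the 4 largest called rises and falls with a mean count of at least 30 and genes called under DHT were described with values, and other called genes were named after their values were seen. Genes most like GGCT had the highest Pearson r over 16 libraries. Coordinates, transcript lengths and 3′ UTRs came from GENCODE 44 lifted to GRCh37. Within groups, libraries differed by more than sampling noise, so none was counted as a duplicate. Replicates 1 and 2, and replicates 3 and 4, were the closest pairs in both NS groups. This did not hold for both pairs in either SLIRP siRNA group. The scripts were tested on simulated data. Alternatives were DESeq2 1.42.0, upper-quartile and RLE normalization, no filter, at least 10 counts in every library, the replicate block, treatment as covariate, an FDR of 0.05, limma 3.58.1 on the normalized table (log2, pseudocount 1) and leaving out each library. Fits of only replicates 1 and 2 or only 3 and 4 were added after seeing the data.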

Additional observations from a re-analysis of the deposited data

Results flagged for a closer look

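In 5 of 40 groups of 4 libraries, 1 library stood apart from the other 3 by Dixon's criterion (the gap to the nearest library set against the group's range), where chance alone gives about 1 group in 20. OPLAH in SLIRP-Veh replicate 2 was at 6.26 CPM on 4 counts, below 18.8 to 21.0 CPM in the others. GCLC in NS-1nM DHT replicate 1 was at 30.4 CPM, below 35.8 to 36.6 CPM. GSR in the same library was at 265 CPM, above 238 to 241 CPM. GPX4 in NS-Veh replicate 1, one of the shallow libraries, was at 134 CPM, below 176 CPM in each of the other 3. GPX4 in SLIRP-1nM DHT replicate 4 was at 209 CPM, above 149 to 155 CPM. In that last library GGCT was also the lowest and SLIRP the highest of the group, while in SLIRP-Veh replicate 2 both were the highest of theirs in CPM. Those SLIRP values rest on 10 and 5 counts, too few to rank the libraries. The cause of these departures was not tested.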

How the results depend on the processing

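GGCT after SLIRP siRNA stayed between 1.94 and 2.05 on the log2 scale over all 16 leave-one-out fits, and OPLAH and GCLC kept their calls over all libraries under every alternative in which they were tested. Depth limited CHAC2, GPX8 and OPLAH, and the cause of the changes below was not tested unless stated. Where replicate numbers were compared, the mean correlation of same-numbered libraries was 0.14 (NS-Veh with NS-1nM DHT), 0.10 (SLIRP-Veh with SLIRP-1nM DHT), 0.09 (NS-1nM DHT with SLIRP-1nM DHT) and 0.03 (NS-Veh with SLIRP-Veh), and not every pair passed 0.1, so the numbers were not taken to pair the samples. With the replicate block 270 genes and 2 of the wider list were called for DHT in NS cells (136 and 0 without it), and GSR was called over all libraries (0.21, FDR 0.00401), while the block changed no other member's call.

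For SLIRP siRNA over all libraries, the wider list had 21 calls at an FDR of 0.05 and 6 with replicates 3 and 4 alone (12 as reported), and all genes had 2057 with replicates 1 and 2 alone and 2128 with 3 and 4 alone (3581 as reported), where fewer libraries entered. GPX1 missed the threshold with limma on the normalized table (FDR 0.0298) and with replicates 3 and 4 alone (FDR 0.0401), GLRX5 with either pair of replicates alone (FDR 0.0268 and 0.021), and TXN with those (0.0338 and 0.0139) and with limma (0.0112). With at least 10 counts in every library OPLAH and GPX8 could not be tested, which left 1 member called with vehicle and 2 under DHT. With limma on the normalized table, all genes called were 1391 with vehicle and 1369 under DHT, 553 higher and 816 lower against 1370 and 1237 as reported, with a median shift of -0.11 under DHT. None (0) of the members was called under DHT with limma, OPLAH (FDR 0.015), GCLC (0.0103), GPX1 (0.0605) and GPX8 (0.028) included, and GPX8 was lost with DESeq2 (0.0109).

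For DHT in NS cells, all genes called were 87 with DESeq2, 236 with no filter, 272 at an FDR of 0.05 and 0 with limma. The wider list had 2 calls with no filter, 1 with at least 10 counts and 3 at an FDR of 0.05, and the members 1 at an FDR of 0.05 (GSR). For DHT in SLIRP siRNA cells, the members called were 0 with DESeq2, upper-quartile normalization and limma, the wider list 1 with upper-quartile normalization and 0 with limma, and all genes 220 with no filter, 309 at an FDR of 0.05 and 12 with limma. The difference in response had 11 calls with no filter and 1 with limma. Ranked by Spearman's rho, 2 of the 5 genes most like GGCT remained.

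Leaving out 1 library at a time gave 2 to 4 members called for SLIRP siRNA under DHT, 0 to 1 for DHT in SLIRP siRNA cells (1 to 3 of the wider list, 73 to 120 of all genes), 0 to 1 of the wider list and 83 to 113 of all genes for DHT in NS cells, and 0 to 1 of all genes for the difference in response.

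The direction reversed for members near 0 and not called, and each range below is that of leaving out 1 library at a time. Over all libraries GPX4 was -0.0030 with limma (range -0.026 to 0.056). With vehicle GPX4 was 0.012 with the replicate block and 0.0079 with limma (range -0.087 to 0.033), CHAC2 was -0.11 with limma (range -0.11 to 0.40), and GPX8 was -0.011 with limma (range -0.13 to 0.24). Under DHT GCLM was -0.0087 with upper-quartile normalization and -0.032 with limma (range -0.075 to 0.060), GSS was -0.047 with limma (range -0.079 to 0.097), and GPX4 was -0.014 with limma (range -0.057 to 0.12). For DHT in NS cells GCLM had a range of -0.049 to 0.099. For DHT in SLIRP siRNA cells GSS was -0.046 with limma (range -0.085 to 0.090), GPX1 was -0.029 (range -0.18 to 0.18), and GPX4 was -0.040 (range -0.10 to 0.071). For the difference in response GPX4 was -0.022 with limma (range -0.034 to 0.18), and GSR had a range of -0.093 to 0.049.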
